A study of Rattus norvegicus with 35 samples.

Results

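The genes described here are 39 genes that interferons are known to induce or that carry the interferon signal, listed by name and measured in rat liver by the brightest probe set of each gene, on average over the 35 arrays. Of these, 36 had a probe set annotated with 1 gene symbol, out of 14217 genes named in the same way, and Ifi47, Gbp5 and Xaf1 were not analysed here. Among the 36, 23 are usually placed under type I interferon, 4 were taken as gamma-type members (Cxcl10, Gbp2, Ubd and Irf1), and 9 are other genes strongly induced by interferon gamma. Mean values of 30 of them lay above 4.71, the lowest median of any array. The other 6 (Mx1, Isg20, Ifit3, Oas1b, Herc6 and Zbp1) were not shown to be above background and are given by values, without a fold. Ddx58 was matched through its synonym Rig1, the symbol on the platform.

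Male Harlan Sprague Dawley rats, 7 weeks old when the study began, were gavaged daily for 5 days with BTBPE, 1,2-bis(2,4,6-tribromophenoxy)ethane, a brominated flame retardant. The carrier, corn oil at 5 ml/kg body weight, was common to all groups, and vehicle rats received it alone. The doses were 0.07, 0.69, 6.88, 68 and 680 mg/kg, with 6 arrays per group and 5 at 68 mg/kg, 35 in all, each of RNA from the left liver lobe taken 1 day after dosing ended. Each array is counted as 1 rat, because the labels describe dosed animals and individual samples. Values are log2 expression as deposited.

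Interferons are secreted proteins that warn cells of infection. Type I interferons act through the receptor chains Ifnar1 and Ifnar2 and through a complex that holds Stat2 and Irf9 and binds a DNA element called the ISRE, whereas the response to interferon gamma is read largely through the GAS element, and both programs share many targets. In liver, resident macrophages (Kupffer cells), lymphocytes and hepatocytes can all respond, and a low level of the program is present without infection.

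The tissue label was checked against markers fixed with the gene lists. All 9 measured hepatocyte markers lay above the array median, with a mean between 13.26 and 13.35 in every rat. Any 2 arrays correlated at 0.991 to 0.996 over all probe sets, and no array stood apart. The 3 prime minus 5 prime signal of Actb, a sign of RNA integrity, ran from 1.02 to 1.37 (log2), and that of Gapdh from -0.08 to 0.19. In bulk liver, fewer cells of a type and less RNA per cell cannot be told apart. Precision depends on the number of arrays in a group and on the spread of each gene among rats, taken over all groups.

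Promoter sequences of 28 of the 36 genes were found in the RefSeq table of assembly GRCr8, which gives 250 bases before and 50 after each start. They were searched on both strands for the ISRE core, read as GAAA followed by any 2 bases and again GAAA, and for the GAS core, read as TTC, any 3 bases and GAA. The ISRE core was present in 17 of the 28 windows (60.7%) against 3.77% of all 27457 promoters, and the GAS core in 12 of 28 (42.9%) against 8.68%. By class, the ISRE core stood in 10 of 15 type I windows, 2 of 4 gamma-type windows and 5 of 9 windows of other gamma-type genes. The GAS core stood in 5, 1 and 6 of them. A match is a description of letters, not of binding.

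The 250 bases before the start are shown for 6 genes that the results turn on, each 5 prime to 3 prime on the strand of the gene, with matches to either core in capitals. Irf7, the master regulator of the type I program, holds an ISRE core 69 bases before the start (the capitals read as the core on the other strand). In Oas1a, an oligoadenylate synthetase that senses double-stranded RNA, a pair of overlapping ISRE cores begin 41 and 35 bases before the start and a GAS core begins 199 bases before it. Gbp2, a guanylate-binding GTPase, has an ISRE core at 31 bases, Cxcl10, a chemokine that attracts T cells, has one at 243 bases, and Irf1, a transcription factor central to the gamma response, has a GAS core at 142 bases. The window of Ubd, a ubiquitin-like modifier also called FAT10, holds neither core as searched.
Irf7, chr1:205800024-205800273, minus strand: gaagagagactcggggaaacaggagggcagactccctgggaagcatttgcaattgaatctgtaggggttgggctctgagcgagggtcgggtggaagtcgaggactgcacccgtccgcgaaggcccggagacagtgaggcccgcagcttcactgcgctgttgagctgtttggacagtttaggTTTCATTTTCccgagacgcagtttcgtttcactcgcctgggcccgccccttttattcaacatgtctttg
Oas1a, chr12:41330216-41330465, plus strand: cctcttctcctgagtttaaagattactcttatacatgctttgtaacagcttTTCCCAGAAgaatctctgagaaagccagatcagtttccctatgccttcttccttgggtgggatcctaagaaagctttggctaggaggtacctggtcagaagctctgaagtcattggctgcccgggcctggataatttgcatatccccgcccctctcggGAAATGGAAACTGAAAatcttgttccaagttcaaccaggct
Gbp2, chr2:234005477-234005726, plus strand: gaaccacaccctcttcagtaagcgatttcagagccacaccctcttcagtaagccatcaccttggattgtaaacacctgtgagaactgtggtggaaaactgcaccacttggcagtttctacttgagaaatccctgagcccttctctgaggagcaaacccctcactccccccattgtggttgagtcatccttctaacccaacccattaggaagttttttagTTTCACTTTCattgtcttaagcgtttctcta
Cxcl10, chr14:15988816-15989065, plus strand: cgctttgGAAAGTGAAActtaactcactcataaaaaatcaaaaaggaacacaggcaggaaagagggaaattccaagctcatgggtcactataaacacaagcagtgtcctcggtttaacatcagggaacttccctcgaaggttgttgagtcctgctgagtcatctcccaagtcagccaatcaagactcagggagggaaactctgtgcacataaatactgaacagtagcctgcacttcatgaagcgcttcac
Irf1, chr10:38417685-38417934, plus strand: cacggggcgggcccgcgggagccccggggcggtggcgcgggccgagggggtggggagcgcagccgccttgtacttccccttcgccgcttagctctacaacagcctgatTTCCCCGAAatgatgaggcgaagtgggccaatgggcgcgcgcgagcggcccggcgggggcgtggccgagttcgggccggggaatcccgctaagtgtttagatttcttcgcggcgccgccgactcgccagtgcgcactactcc
Ubd, chr20:1392686-1392935, minus strand: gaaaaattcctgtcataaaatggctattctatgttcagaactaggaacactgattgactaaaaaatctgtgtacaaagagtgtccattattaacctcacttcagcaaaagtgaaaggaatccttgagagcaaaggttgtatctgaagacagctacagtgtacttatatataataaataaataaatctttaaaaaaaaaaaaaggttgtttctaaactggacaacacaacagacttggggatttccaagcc

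In 3 members a GAS core was followed, after 2 bases, by an ISRE core. They are Parp14, an ADP-ribosyltransferase, and Igtp and Irgm, immunity-related GTPases that act on pathogen vacuoles. The arrangement was noticed in the sequences and then counted: it occurs in 7 of 27457 promoters (0.0255%), and the other 4 belong to Irgm2, Ifgga2l2, LOC134480693 and Stra8. The 33 bases around it are shown with both cores in capitals.
Parp14, chr11:78408041-78408073, plus strand: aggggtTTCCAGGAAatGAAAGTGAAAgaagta
Igtp, chr10:42874927-42874959, plus strand: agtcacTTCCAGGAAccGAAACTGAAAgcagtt
Irgm, chr10:33742597-33742629, minus strand: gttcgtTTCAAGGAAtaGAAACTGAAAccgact

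Rats of the same dose differed widely in interferon response genes, which were chosen with earlier results of these data known. The standard deviation among rats of one dose, pooled over the 6 groups, had a median of 0.39 (log2) over the 36 members against 0.14 over all 14217 genes. It was above the 95th percentile of all genes, 0.27, in 25 of the 36, and above 0.5 in 12 of 36 against 118 of 14217 genes. The largest spread was that of Ubd, 1.38 (95% interval 1.10 to 1.86), which ranked 4 among all genes. Mx2, a dynamin-like antiviral GTPase, followed at 0.88 (0.70 to 1.18) and rank 13, then Rtp4, an interferon-induced receptor transporter, at 0.80 (0.64 to 1.08) and rank 23. The dim Mx1, a sister of Mx2, had 0.72. Oas1a had 0.71, Usp18, the protease that removes Isg15 from proteins, 0.70, and Irf7 0.65, and the intervals from Mx2 to Irf7 overlapped one another. The interval of Ubd overlapped that of Mx2 but lay just above that of Rtp4. These intervals assume normally distributed values with the same SD in every group. The SD of Ubd ran from 0.26 at 68 mg/kg to 1.81 in vehicle rats. Its interval is therefore approximate, and the separation from Rtp4 is not firm.

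The smallest spreads were those of Stat2 (0.14, at the 47.4 percentile of all genes), the peptide transporter subunit Tap2 (0.14), Parp14 (0.15), the RNA sensors Ifih1 (0.17) and Ddx58 (0.17), and the chemokine Cxcl11 (0.18). Large and small spreads occurred in both type I and gamma-type classes. The median was 0.34 over the type I members, 0.51 over the 4 gamma-type members and 0.41 over the other gamma-type members. Irf1 stood at 0.28, near the 95th percentile of all genes, while Gbp2 (0.53) and Cxcl10 (0.48) lay at the 99.3 and 99.1 percentile. The spread was present in vehicle rats, where the median SD of the members was 0.28 against 0.12 over all genes, and in dosed groups the median ranged from 0.32 at 0.07 mg/kg to 0.43 at 68 mg/kg. Group membership accounted for 2.55% (Irf1) to 23.9% (Cxcl11) of the variance of a member. These shares are not adjusted for the number of groups, and a share above 0 arises without any group effect. The limma F test over doses gave 0 members an unadjusted p under 0.05.

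**Figure D1:**
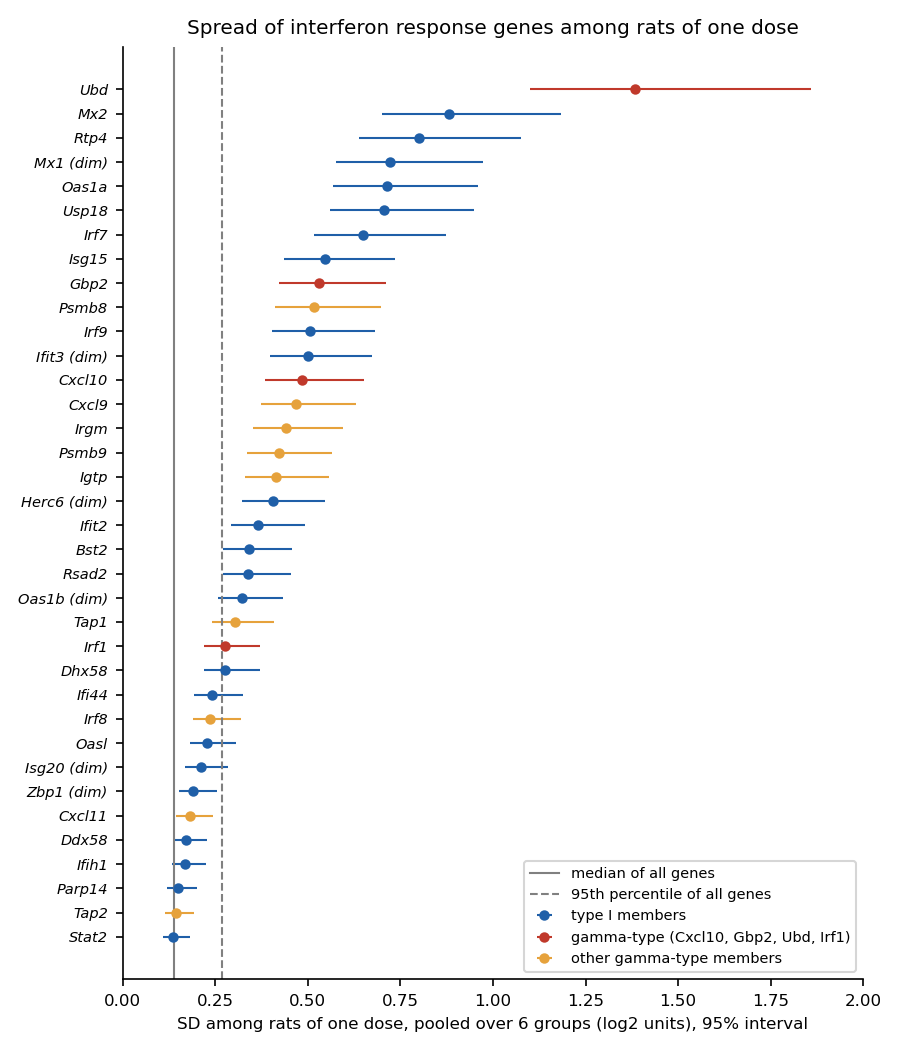
Standard deviation of each of the 36 members among rats of one dose (horizontal axis, log2 units, pooled over 6 groups), with 95% intervals, coloured by class; genes whose mean lay below 4.71 are marked dim. Ubd stands at 1.38 and Mx2 at 0.88, and the lower end of the list reaches the median of all genes (0.14, solid line); the dashed line is the 95th percentile, 0.27.

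Among the regulators, Irf7 varied most. Its values in vehicle rats ran from 6.57 through a median of 7.10 to 7.59, and at 0.07 mg/kg from 5.82 through 7.17 to 7.50. At 0.69 mg/kg the lowest, median and highest values were 5.99, 7.30 and 7.49, and at 6.88 mg/kg 6.24, 7.17 and 7.95. The 5 rats at 68 mg/kg had 7.38, 5.93, 7.31, 7.85 and 5.86, and at 680 mg/kg values went from 5.80 through 7.15 to 7.47. Each group held 1 or 2 rats well under its median, and all groups overlapped.

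Irf9, the DNA-binding partner of Stat2, showed the same low rats. It ran from 6.09 through 6.75 to 6.80 in vehicle rats, from 5.68 through 6.66 to 6.98 at 0.07 mg/kg, and from 5.79 through 6.81 to 7.13 at 0.69 mg/kg. It ran from 5.88 through 6.84 to 7.35 at 6.88 mg/kg and from 5.93 through 6.64 to 6.72 at 680 mg/kg. The rats at 68 mg/kg had 6.81, 5.27, 6.82, 7.12 and 5.59. The 68 mg/kg group held both the lowest value of any rat, 5.27, and one of the highest, 7.12.

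Stat2, a subunit of the same complex, was nearly level. It lay between 7.86 and 8.16 (median 7.99) in vehicle rats, between 7.71 and 8.18 (8.07) at 0.07 mg/kg and between 7.88 and 8.21 (7.91) at 0.69 mg/kg. Values were between 7.79 and 8.15 (7.95) at 6.88 mg/kg, at 680 mg/kg between 7.89 and 8.30 (7.97), and at 68 mg/kg the values were 7.91, 7.80, 8.10, 7.98 and 7.90. The whole range over 35 rats was 0.59 (log2), against 2.15 for Irf7 and 2.07 for Irf9.

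Irf1 ran from 7.05 through 7.30 to 7.50 in vehicle rats, from 7.10 through 7.30 to 7.69 at 0.07 mg/kg and from 6.84 through 7.41 to 7.66 at 0.69 mg/kg. The rats at 6.88 mg/kg ran from 6.95 through 7.34 to 7.80 and those at 680 mg/kg from 6.86 through 7.28 to 7.49. At 68 mg/kg the values were 7.30, 6.77, 7.92, 7.35 and 7.35, which include the lowest and the highest rat of the study. Irf8, a regulator of macrophages and dendritic cells, ranged from 5.42 to 6.43 over all rats, a 2.02-fold range.

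Among the antiviral effectors, Mx2 values fell on both sides of an empty interval. In vehicle rats they ran from 4.50 through 6.08 to 6.24, and at 0.07 mg/kg from 4.38 through 5.84 to 6.43. At 0.69 mg/kg they ran from 3.83 through 5.87 to 6.47, and at 6.88 mg/kg from 4.61 through 5.90 to 7.05. The rats at 68 mg/kg had 6.21, 4.17, 6.10, 6.61 and 4.16, and at 680 mg/kg values ran from 4.45 through 5.89 to 6.26. In all, 9 rats lay between 3.83 and 4.66 and the other 26 between 5.34 and 7.05, with none across the 0.68 between. Every group had low rats: 1 in each of the vehicle, 0.07 and 6.88 mg/kg groups, and 2 in each of the 0.69, 68 and 680 mg/kg groups. The 9 low values all lay below 4.71 and were thus not shown to be above background.

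Rtp4 was brighter and spread as widely. It ran from 6.93 through 8.25 to 8.51 in vehicle rats, from 6.65 through 8.14 to 8.65 at 0.07 mg/kg and from 7.06 through 8.53 to 8.96 at 0.69 mg/kg. It ran from 7.75 through 8.56 to 9.16 at 6.88 mg/kg and from 6.42 through 8.17 to 8.67 at 680 mg/kg, and the rats at 68 mg/kg had 8.43, 6.26, 8.47, 8.81 and 6.83. Its range over all rats was 7.44-fold, so the spread was not confined to dim probe sets. Of its 9 lowest rats, 8 were also among the 9 low in Mx2.

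Oas1a ran from 4.22 through 5.41 to 5.75 in vehicle rats, from 4.09 through 5.46 to 5.96 at 0.07 mg/kg and from 4.40 through 5.50 to 6.24 at 0.69 mg/kg. Rats at 6.88 mg/kg ran from 4.72 through 5.66 to 6.30, those at 680 mg/kg from 4.25 through 5.22 to 5.65, and at 68 mg/kg the values were 5.53, 4.26, 5.56, 6.45 and 4.16. The ranges of all groups overlapped in part. In every group except 6.88 mg/kg the lowest Oas1a value fell under 4.71, where signal cannot be told from background. The spread of Oas1a and its set of lowest rats rest in part on such values. Of the other effectors, Bst2, which tethers budding virus to cells, was the brightest member, between 9.65 and 10.87. Rsad2 (viperin) lay between 5.57 and 7.12, Ifit2, which binds viral RNA, between 7.09 and 8.71, Ifi44 between 5.03 and 6.02, Parp14 between 6.81 and 7.51, and Oasl between 4.36 and 5.27. Mx1, between 3.17 and 5.86 over all rats with a mean of 4.62, lay on both sides of 4.71. Ifit3 (3.17 to 5.31), Isg20 (4.27 to 5.09) and Oas1b (2.54 to 3.74) were dim too.

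The cytoplasmic RNA sensors varied less. Ddx58 (RIG-I) ranged from 8.22 to 8.85 and Ifih1 (MDA5) from 5.92 to 6.55, ranges of 1.54-fold and 1.55-fold. Dhx58 (LGP2), a regulator of both, ranged from 4.33 to 5.26, with 9 rats under 4.71. The nucleic acid sensor Zbp1 lay between 3.71 and 4.39 and was not shown to be above background.

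Among the ubiquitin-like genes, Usp18 followed the Mx2 pattern. It ran from 5.51 through 6.34 to 6.83 in vehicle rats, from 4.59 through 6.53 to 7.04 at 0.07 mg/kg and from 5.38 through 6.60 to 7.11 at 0.69 mg/kg. Usp18 ran from 5.78 through 6.72 to 7.37 at 6.88 mg/kg, at 680 mg/kg from 5.43 through 6.56 to 6.78, and the rats at 68 mg/kg had 6.91, 5.39, 6.69, 7.06 and 5.09. Isg15, the modifier itself, ranged from 5.32 to 7.27 over all rats. The ligase Herc6 (3.47 to 5.16) was dim.

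Ubd had the widest range of the 36 members. In vehicle rats it ran from 4.59 through a median of 6.30 to 8.74, and at 0.07 mg/kg from 4.30 through 7.34 to 8.86. At 0.69 mg/kg all 6 rats lay between 7.14 and 8.20 (median 7.85), and at 68 mg/kg the values were 7.57, 7.95, 8.18, 7.59 and 7.83. At 6.88 mg/kg it ran from 4.59 through 7.32 to 8.10 and at 680 mg/kg from 4.71 through 7.17 to 7.87. No rat lay between 5.02 and 6.94, and 4 rats lay under 4.71, where a value is not shown to be above background. Below that interval were 9 rats: 3 vehicle rats and 2 each in the 0.07, 6.88 and 680 mg/kg groups. The 0.69 and 68 mg/kg groups had 0.

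The rats low in Ubd and those low in Mx2 were not the same set. Each held 9 rats and they shared 1, replicate 3 at 0.07 mg/kg, which is 11.1% of each set, while 25.7% of all 35 rats were low in Mx2. Whether the overlap is smaller than for unrelated genes was not tested. The rats low in Mx2 were also the 9 lowest in Mx1, Irf7, Irf9, Isg15 and Igtp. Of the 9 lowest rats, 8 were in that set for Rtp4, Oas1a, Usp18, Ifi44, Dhx58, Gbp2 and Irgm, and 8 for the dim Ifit3 and Herc6. The number was 5 for Cxcl10, 4 for Stat2, 3 for Ifit2, 2 for Cxcl11 and 1 for Ubd. These sets were read from the measured values and are a description of the rats, not groups of the study.

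**Figure D2:**
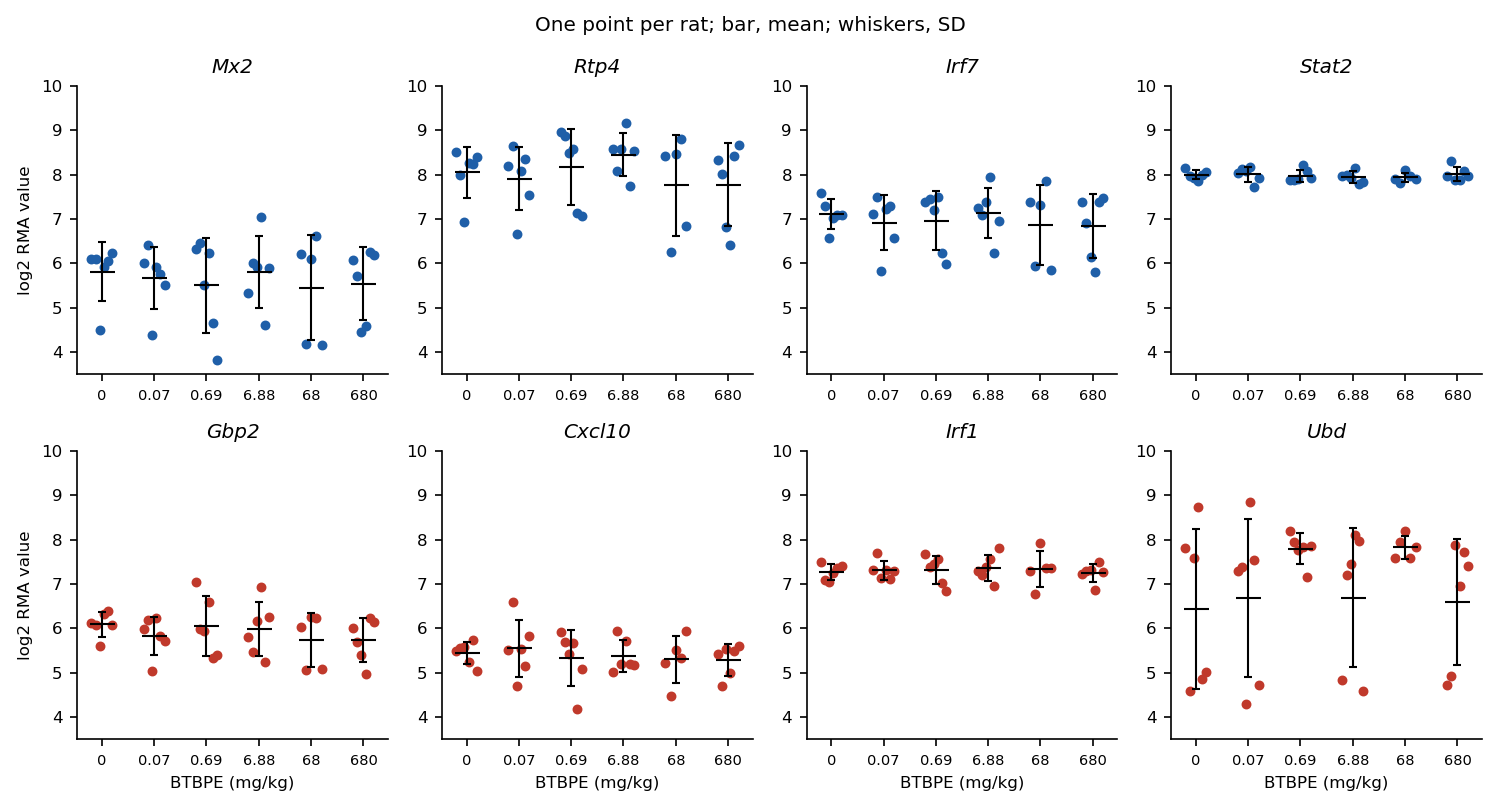
Log2 expression of 8 members in each rat (points) by dose of BTBPE in mg/kg (0 is vehicle), with the mean (bar) and SD (whiskers) of each group, 6 rats per group and 5 at 68 mg/kg. Mx2 has rats below 4.71 in every group, Stat2 is nearly level, and Ubd has no rat between 5.02 and 6.94.

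The GTPase Gbp2 ran from 5.59 through 6.09 to 6.38 in vehicle rats, from 5.04 through 5.90 to 6.23 at 0.07 mg/kg and from 5.33 through 5.96 to 7.04 at 0.69 mg/kg. Gbp2 at 6.88 mg/kg ran from 5.24 through 5.98 to 6.94, at 680 mg/kg from 4.97 through 5.85 to 6.23, and the rats at 68 mg/kg had 6.03, 5.05, 6.25, 6.22 and 5.09. The same 2 rats at 68 mg/kg were low in Gbp2, Mx2, Irf7 and Irf9. Igtp ranged from 6.87 to 8.37 and Irgm from 6.46 to 8.13 over all rats, 2.82-fold and 3.19-fold.

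Of the chemokines that bind Cxcr3 on T cells, Cxcl10 ran from 5.04 through 5.52 to 5.74 in vehicle rats, from 4.71 through 5.52 to 6.59 at 0.07 mg/kg and from 4.17 through 5.53 to 5.91 at 0.69 mg/kg. Cxcl10 at 6.88 mg/kg ran from 5.01 through 5.20 to 5.93, at 680 mg/kg from 4.70 through 5.46 to 5.60, and at 68 mg/kg the values were 5.22, 4.48, 5.51, 5.33 and 5.93. One of the 2 low Mx2 rats at 68 mg/kg was thus the lowest of that group in Cxcl10 and the other the highest. The lowest Cxcl10 values at 0.69 and 68 mg/kg lay under the lowest array median, and those at 0.07 and 680 mg/kg just under it. None of them was shown to be above background. Cxcl9 ranged from 5.72 to 7.59 over all rats, 3.67-fold, and Cxcl11 from 8.20 to 9.08, 1.84-fold.

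The antigen processing genes lie together on chromosome 20, where the windows of Tap1 and Psmb9 overlap. The immunoproteasome subunits Psmb8 and Psmb9 ranged 4.14-fold and 3.33-fold over all rats, from 7.34 to 9.39 and from 7.03 to 8.77. Tap1, which carries peptides into the endoplasmic reticulum, ranged from 5.73 to 7.05, 2.50-fold, and its partner Tap2 from 6.17 to 6.80, 1.54-fold. A second, dim probe set of Tap1 (mean 3.44) did not follow the one used (r = -0.09 over 35 rats with group means removed). Second probe sets of 8 other members correlated with the used ones at 0.70 (Parp14) to 0.97 (Cxcl9). The sign of the difference from vehicle disagreed between probe sets at 2 of 5 doses for Irf9 and at 1 dose for Stat2, Ifit2, Cxcl9, Dhx58, Parp14 and Tap1.

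The size of the spread was then compared between groups, from absolute deviations of each rat from its group mean. Ubd was the single member called: its SD was 1.81 in vehicle, 1.78 at 0.07, 0.35 at 0.69, 1.57 at 6.88, 0.26 at 68 and 1.41 at 680 mg/kg (adjusted p = 0.0256, limma F over groups). In that test 0.0838% of all probe sets were called, and 11.9% had an unadjusted p under 0.05, as had 6 of the 36 members. With deviations from the group median, 0% were called and 3.34% had an unadjusted p under 0.05, as had 1 member, and Ubd had an adjusted p of 0.9998. The call on Ubd was thus lost in the second form, and it was also lost in 15 of 35 fits that each left out 1 rat (adjusted p between 0.00711 and 0.0926). The 15 were vehicle replicates 2, 4, 5 and 6, replicates 3 and 6 at 0.07, 2, 3, 4 and 6 at 0.69, 1 and 6 at 6.88, 5 at 68, and 1 and 2 at 680 mg/kg. With replicate number as a block, its adjusted p was 0.505. In no other member did a difference in spread between groups pass the threshold.

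Type I members varied together from rat to rat, and some of the gamma-type members varied with them. With group means removed, the 253 pairs of type I members had a median correlation of 0.67 over 35 rats, and 177 of them were above 0.5. Gbp2 correlated with type I members at a median of 0.79, Cxcl9 at 0.63, Irf1 at 0.59 and Cxcl10 at 0.42. Stat2, itself of the type I class, had a median of 0.32 with the others, and Cxcl11 0.05. Against the mean of the other type I members, r was highest for Irf7 (0.98), Rtp4 (0.97), Usp18 (0.97), the dim Mx1 (0.96) and Isg15 (0.96), and lowest for Isg20 (0.33), Ubd (0.13) and Cxcl11 (0.05). Among genes not placed under type I, Igtp (0.92), Tap1 (0.90), Gbp2 (0.89), Psmb9 (0.85) and Irf8 (0.81) stood highest. The mean of Cxcl10, Gbp2 and Irf1 correlated with the mean of the type I members at r = 0.80 (rho 0.78), and that of the other gamma-type members at r = 0.90. These correlations are across 35 rats that share arrays processed together and are descriptions. All of them, that of Ubd included, take in the 9 rats that lay apart in Mx2. Those rats were also the lowest in Mx1, Irf7, Irf9 and Isg15, and the part of that separation in these values was not tested.

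Of 12 pairs set out for testing, 10 passed a two-sided permutation test within groups (100000 resamples, adjusted over the 12). The members were chosen with earlier results of these data known, so these p-values are not independent support. Mx1 is dim (mean 4.62), and in the 9 rats low in Mx2 its values all lay under 4.71. Mx1 correlated with Irf7 at r = 0.96 (rho 0.92), with Rtp4 at 0.95 (0.90), with Irf9 at 0.93 (0.89) and with Gbp2 at 0.90 (0.88). Each of these pairs had an adjusted p of 2.4e-05, which comes from the smallest p that these permutations can give. Mx1 and Irf1 correlated at 0.63 (rho 0.58, adjusted p = 7.8e-04), and Gbp2 and Irf1 at 0.75 (rho 0.71, adjusted p = 2.4e-05). Cxcl10 was less closely tied: r was 0.54 with Irf1 (rho 0.52, adjusted p = 0.00578), 0.47 with Gbp2 (rho 0.46, adjusted p = 0.0173) and 0.47 with Mx1 (rho 0.44, adjusted p = 0.0193). Without replicate 5 at 0.69 mg/kg, whose Cxcl10 value (4.17) lay under 4.71, the last value was 0.39 (adjusted p = 0.0626, permutation).

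Mx1 and Stat2 (r = 0.34, adjusted p = 0.0738, rho 0.38, adjusted p = 0.0427, by permutation) passed on rho and not on r. Because Ubd splits the rats, its pairs were computed over the 26 rats above its gap, where Mx1 and Ubd had r = 0.21 (rho 0.23, adjusted p = 0.252) and Ubd and Gbp2 r = 0.39 (rho 0.43, adjusted p = 0.0427). These rats were selected by the value of Ubd itself. In the same 26 rats, with values not centred on dose and permuted freely, Ubd and Gbp2 had r = 0.39. The unadjusted permutation p was 0.0451, against 0.0355 with centring. The adjusted p was 0.0903, but over another set of 12 pairs, which included pairs in the rats above the gap in Mx2. The adjusted values are therefore not comparable, and the effect of centring on the call was not tested. Leaving out any 1 of 11 rats raised the adjusted p of that last pair above 0.05 (vehicle replicates 3 and 4, replicates 1 and 4 at 0.07, 1 and 5 at 0.69, 2 and 4 at 6.88, 3 at 68, and 4 and 5 at 680 mg/kg). Without the 2 rats farthest from the median of the first gene, r was 0.95 for Mx1 and Irf7, 0.95 with Rtp4, 0.91 with Irf9, 0.89 with Gbp2, 0.67 with Irf1, 0.54 with Cxcl10, 0.40 with Stat2 and 0.14 with Ubd. In the same way it was 0.74 for Gbp2 and Irf1, 0.46 for Cxcl10 and Irf1, 0.41 for Cxcl10 and Gbp2 and 0.40 for Ubd and Gbp2.

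Since 9 rats lay apart in Mx2, the pairs were also computed among the 26 rats above that gap. The split was chosen after the values were seen, on a gene that varies with those compared, and the values were not centred on dose, so they are descriptions. There Mx1 and Irf7 had r = 0.80, Mx1 and Rtp4 0.77, Mx1 and Gbp2 0.74, Mx1 and Irf9 0.73, and Gbp2 and Irf1 0.53. The values were lower for Mx1 with Cxcl10 (0.32), Mx1 with Irf1 (0.31), Cxcl10 with Gbp2 (0.28) and Cxcl10 with Irf1 (0.27). These 4 pairs, called over 35 rats, were not called there (adjusted p between 0.176 and 0.206, permutation). In the 9 rats below the gap every Mx1 value, from 3.17 to 4.13, lay under 4.71, and nothing is read from correlations there.

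**Figure D3:**
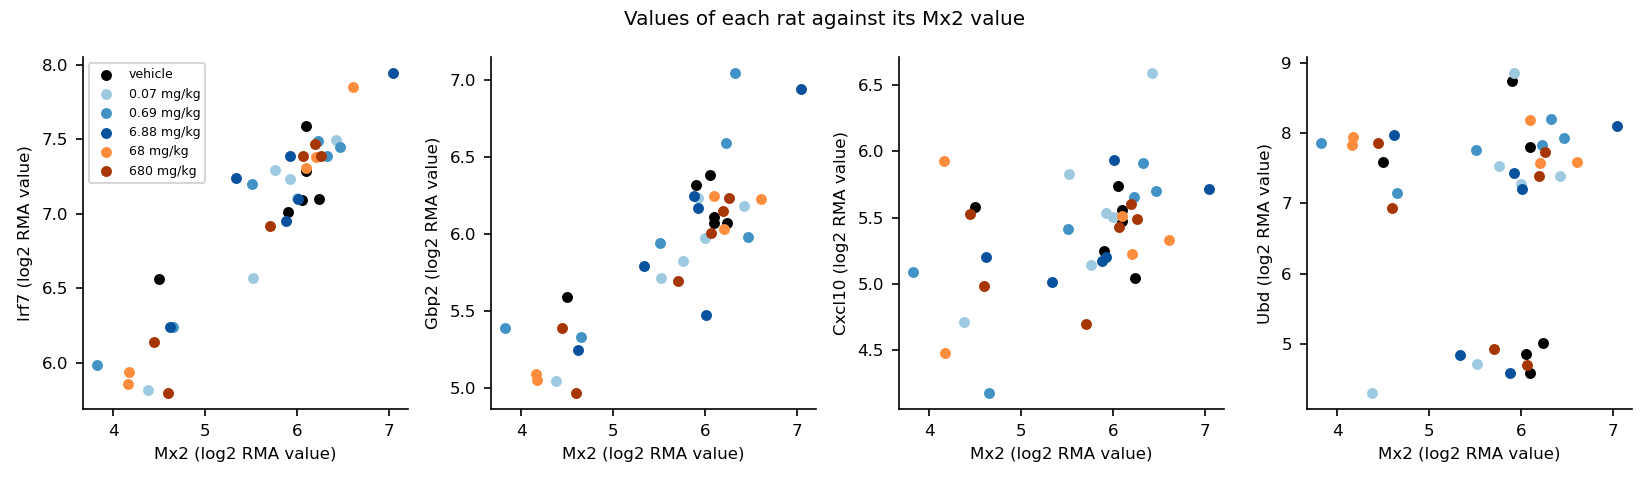
Log2 expression of Irf7, Gbp2, Cxcl10 and Ubd (vertical axes) against Mx2 (horizontal axis) in each of 35 rats, coloured by dose. Irf7 and Gbp2 climb with Mx2, Cxcl10 is scattered, and 1 of the 9 rats low in Ubd is also low in Mx2.

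Markers of other liver cells moved with the type I members. The mean of 16 macrophage markers correlated with the type I mean at r = 0.83 (rho 0.83), and 13 of the 16 had r above 0.5, among them the Kupffer cell lectin Clec4f (0.88), Cd5l (0.89), Cd68 (0.87) and Adgre1 (0.79), while Cd14 (-0.20), Lyz2 (0.23) and Mrc1 (0.33) did not. All 16 lay above the array median, with list means between 7.77 and 8.29 in vehicle rats, 7.67 and 8.22 at 0.07, 7.46 and 8.43 at 0.69, 7.66 and 8.42 at 6.88, 7.45 and 8.19 at 68, and 7.83 and 8.21 at 680 mg/kg.

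Of 21 lymphocyte and natural killer cell markers 6 lay above the lowest array median, and their mean correlated at r = 0.80. The median r of the 6 taken singly was 0.36. Cd2 (mean 4.72) and Cd8a (mean 4.79) lay between the lowest and the highest array median, 4.71 and 4.79. Only 2 of the 6 had r above 0.5, the cytotoxic granule proteins Gzma (0.90) and Prf1 (0.85), while Cd8a (0.49), Cd7 (0.24), Lck (0.20) and Cd2 (-0.42) did not. The T cell receptor chains Cd3e (0.08), Cd3d (0.17) and Cd3g (0.10) and the B cell marker Ms4a1 (0.17) lay below the array median. So did the granule proteins Gzmb (0.73) and Gzmk (0.23). The natural killer cell markers Nkg7 (0.64), Klrk1 (0.63), Ncr1 (0.52) and Klrd1 (0.48) were dim as well. The mean of the 6 ran from 4.89 to 5.33 in vehicle rats, 4.94 to 5.38 at 0.07, 4.88 to 5.49 at 0.69, 5.04 to 5.31 at 6.88, 4.71 to 5.32 at 68 and 4.82 to 5.22 at 680 mg/kg. For the other lists, r with the type I mean was 0.48 for dendritic cells (3 of 6 above the median), -0.12 for neutrophils (2 of 7), -0.21 for hepatocytes (9 of 9) and 0.04 for other tissues (2 of 8). The Actb 3 prime minus 5 prime signal correlated with the type I mean at -0.39 and that of Gapdh at -0.35. The part of these cell markers and of RNA quality in the spread of the interferon genes was not tested.

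**Figure D4:**
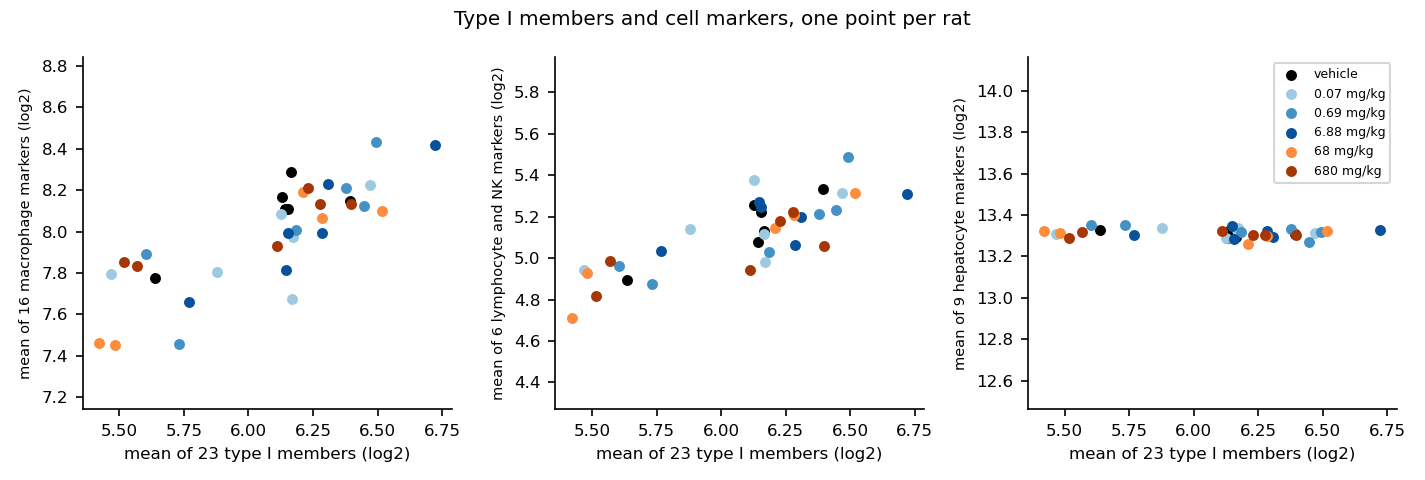
Mean log2 expression of 16 macrophage, 6 lymphocyte and natural killer cell and 9 hepatocyte markers (vertical axes, the same span in each panel) against the mean of the 23 type I members in each of 35 rats, coloured by dose. The first 2 lists climb with the type I mean (r = 0.83 and 0.80), and the hepatocyte list stays between 13.26 and 13.35.

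No dose of BTBPE changed an interferon response gene at an adjusted p under 0.05. The same vehicle rats serve all 5 comparisons, which are therefore not independent. At each dose 0 of 36 members were called by limma, as were 0% of the 31042 probe sets (0.07, 0.69, 6.88, 68 and 680 mg/kg alike). An unadjusted p under 0.05 was found for 0 members at 0.07, 0.69, 6.88 and 68 mg/kg, where 3.64%, 3.16%, 4.63% and 3.88% of all probe sets had one. At 680 mg/kg it was found for 2 members, against 4.95% of all probe sets.

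The number of members above vehicle was 13 of 36 at 0.07, 25 at 0.69, 27 at 6.88, 10 at 68 and 9 at 680 mg/kg, where 46.7% to 51.7% of all genes were above it. The median difference of the members was -0.05, 0.07, 0.11, -0.09 and -0.07 (log2) in that order, and that of all genes between -0.00538 and 0.00309. A single rat could turn the sign: the median was 0.06 at 0.07 mg/kg without its replicate 3, -0.04 at 0.69 mg/kg without vehicle replicate 3, 0.00337 at 68 mg/kg without its replicate 2 and 0.03 at 680 mg/kg without its replicate 4. With Actb 3 prime minus 5 prime as a covariate it was 0.03 at 0.07 and 0.23 at 6.88 mg/kg. At 6.88 mg/kg it stayed positive, between 0.00852 and 0.19 over all rats left out in turn, the lowest without its replicate 4. Of the 16 macrophage markers, 15, 15, 13, 15 and 14 lay below vehicle in the same order of doses, with medians of -0.18, -0.08, -0.09, -0.30 and -0.10, and 0 were called; every dose shares the vehicle rats, and the part of these markers in the members' differences was not tested. By class, type I members had medians of -0.05, 0.07, 0.12, -0.09 and -0.07 and the 4 gamma-type members 0.07, -0.000468, 0.01, -0.04 and -0.09. The 95% interval of the difference excluded a 2-fold change for 32 of 36 members at 0.07, 6.88, 68 and 680 mg/kg and for 34 at 0.69 mg/kg, against 99.6% to 99.7% of all genes.

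**Figure D5:**
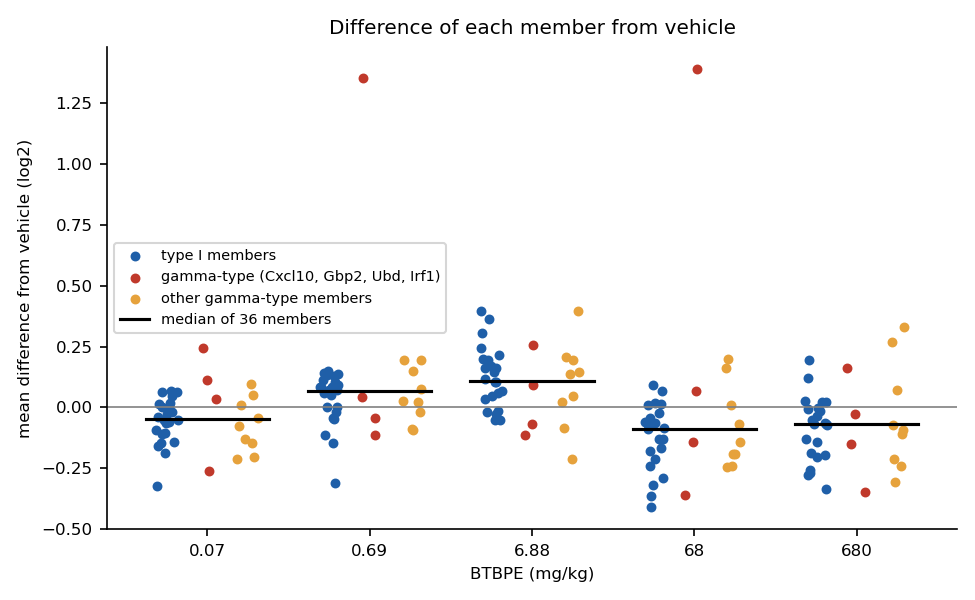
Difference of each of the 36 members from the vehicle mean (vertical axis, log2) at each dose of BTBPE, coloured by class, with the median of the members as a bar. Members lie between -0.41 and 0.40 except Ubd at 0.69 mg/kg (1.36) and 68 mg/kg (1.39).

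At 680 mg/kg the smallest p belonged to Cxcl11. It averaged 8.49 ± 0.19 in vehicle rats and 8.75 ± 0.22 in dosed rats (SD, n = 6 each), 1.21-fold with a 95% interval of 1.05 to 1.39, which did not pass (unadjusted p = 0.0118, adjusted p = 0.994, limma). Parp14 followed with 7.14 ± 0.14 against 7.33 ± 0.17, 1.14-fold (1.02 to 1.29, adjusted p = 0.994), and Irf8 with 0.845-fold (0.704 to 1.01).

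At 68 mg/kg Ubd stood 2.62-fold above vehicle with an interval of 0.888 to 7.76 (adjusted p = 0.999, limma). In that comparison 3 of 6 vehicle rats and 0 of 5 dosed rats were below the gap in Ubd. Irf8 was at 0.847-fold (0.699 to 1.03) and Cxcl11 at 1.12-fold (0.964 to 1.30). At 6.88 mg/kg the smallest p values were those of Parp14 at 1.12-fold (0.993 to 1.26), Cxcl11 at 1.14-fold (0.992 to 1.32) and Ifih1 at 1.12-fold (0.981 to 1.28). At 0.69 mg/kg they were Cxcl11 at 1.15-fold (0.994 to 1.32), Ubd at 2.56-fold (0.910 to 7.19) and Parp14 at 1.10-fold (0.976 to 1.24). At 0.07 mg/kg they were Irf8 at 0.869-fold (0.724 to 1.04), Gbp2 at 0.835-fold (0.561 to 1.24) and Tap1 at 0.903-fold (0.717 to 1.14). Each of these intervals includes a ratio of 1.

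None of the key regulators was called at 680 mg/kg, with Irf7 at 0.836-fold (0.514 to 1.36), Irf9 at 0.869-fold (0.594 to 1.27), Stat2 at 1.01-fold (0.908 to 1.13) and Irf1 at 0.980-fold (0.794 to 1.21). Mx2 stood at 0.829-fold (0.429 to 1.60) and Usp18 at 0.966-fold (0.569 to 1.64). A ratio of 1 lies within every one of these intervals, and changes as large as their ends are not excluded. Over all doses, the F test gave 0 members an unadjusted p under 0.05, against 3.85% of probe sets, and 0% of probe sets were called. A trend over dose rank from 0 to 5 gave 2 members, against 5.14% of probe sets, with 0% called. These were Cxcl11, with a slope of 0.05 per rank (SE 0.02, adjusted p = 0.900, limma), and Parp14, with 0.03 (SE 0.01, adjusted p = 0.948).

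Other genes of the pathway were taken from lists by role. Of 9 listed ligand genes 3 were measured, Ifnb1, Ifng and Ifnk, and all lay below the array median. Of 6 receptor chains 5 lay above it, with a median SD over the list of 0.13 and 0 with r above 0.5 to the type I mean: Ifnar1 had -0.21, Ifnar2 0.15 and Ifngr1 0.47. Of 11 signalling genes 2 were above 0.5, the kinase Jak2 (0.59) and the phosphatase Ptpn6 (0.55), and of 7 sensing genes 1 was. Of 43 further targets 31 were above 0.5, led by Ifi27 (0.97), the lectin ligand Lgals3bp (0.94) and the galectin Lgals9 (0.94). At no dose was a gene of these 5 lists called.

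By smallest p, the 2 pathway genes at 680 mg/kg were Irf2, an antagonist of Irf1, at 1.13-fold (1.04 to 1.24, adjusted p = 0.992, limma) and the GTPase Irgm2 at 1.15-fold (1.01 to 1.31). Irgm2 was also 1 of the 2 at 6.88 mg/kg, at 1.21-fold (1.06 to 1.37, adjusted p = 0.999), beside the ligand Ifnk, which was dim (2.53 ± 0.17 in vehicle, 2.27 ± 0.07 at 6.88 mg/kg and 2.32 ± 0.10 at 0.69 mg/kg, SD, n = 6). At 68 mg/kg they were the ligase Trim25 at 0.779-fold (0.644 to 0.944) and the dim Batf2 (4.45 ± 0.20 in vehicle, n = 6, against 4.14 ± 0.14, n = 5). At 0.69 mg/kg the second was the receptor chain Ifngr2 at 0.917-fold (0.848 to 0.992), and at 0.07 mg/kg both were dim, Ido1 (3.51 ± 0.19 against 3.88 ± 0.21) and Nlrc5 (4.54 ± 0.13 against 4.79 ± 0.27). None passed the adjustment.

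Outside all lists, the genes whose values were most like the type I mean over 35 rats, among 9545 searched, were Ms4a6a (r = 0.96), Ly6e (0.96), LOC100910973 (0.96), RT1-S3 (0.95), Slfn5 (0.94), RT1-T24-3 (0.92), Slfn2 (0.92), Ms4a6bl1 (0.91), Fcgr3a (0.91) and Znfx1 (0.90). In all 38 genes were above 0.8 and 270 above 0.5. Most like the mean of the 4 gamma-type members, among which Ubd has the largest spread, were Gpnmb (0.80), Cpb1 (0.69), Bcl2a1 (0.66), Lyn (0.66) and Exo5 (0.64). The gene most like Ubd alone was RT1-CE10, a class I histocompatibility gene, at 0.61, a search added after the values were seen.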

How the data were processed

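Liver RNA of 35 rats was hybridised to single-colour Affymetrix 3 prime rat arrays. The submitters' processing notes name RMA and affy, with versions not given in the sources used here, and the values the authors deposited are log2 expression per probe set. RMA's quantile step would reduce a shift common to most genes. Of 31099 probe sets, 57 controls were left out and 31042 were tested. Genes were named from the platform annotation: 20826 probe sets had 1 symbol, 436 several and 9780 none. A gene was represented by its probe set with the highest mean.

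Groups were taken from the labels. All arrays entered 1 linear model, with limma 3.58.1 in R 4.3.3 and 1 term per group, with Benjamini-Hochberg adjustment over all probe sets and calls at 0.05. R/maanova, named in the design text, was not used here. P-values measure the spread between these arrays, counted as 1 rat each. Spread was compared by the same fit to absolute deviations from the group mean. In these data, 11.9% of probe sets had an unadjusted p under 0.05 in this form and 3.34% in the form with group medians. Both are printed, and which of them has the truer error rate was not tested. Correlations used values with group means removed. Intervals are 95% intervals for single genes.

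The members and lists were chosen with earlier results of these data known. Named in full were the 4 gamma-type members, Irf7, Irf9, Stat2 and the 5 members above the lowest array median with the largest spread. Also named were the 3 members and 2 other pathway genes with the smallest p at each dose, and the 10 and 5 genes most like the class means. Promoters came from RefSeq (GRCr8). Alternatives were a dim-signal filter, quantile normalisation again, the mean of all probe sets of a gene, median centring, median-centred deviations, trend and robust priors, array weights, an unmoderated analysis of variance, only vehicle and the dose compared, Actb 3 prime minus 5 prime as a covariate, the replicate number as a block and leaving out each rat.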

Additional observations from a re-analysis of the deposited data

Results flagged for a closer look

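Of 228 groups of 5 or 6 rats examined (each member and the class means in each dose group), 19 had a highest or lowest rat whose gap to the next was large against the range of its group. Chance flags about 1 in 20 groups, and the members vary together, so several of these are the same rat. Values are log2.

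Vehicle replicate 3 was the lowest of its group in Mx1 (3.99, next 4.82), Mx2 (4.50, next 5.91), Rtp4 (6.93, next 7.98), Oas1a (4.22, next 5.27), Irf9 (6.09, next 6.68), Isg15 (5.73, next 6.41) and Tap1 (6.16, next 6.44), and in the mean of the type I members (5.64, next 6.13). Replicate 3 at 0.07 mg/kg was the lowest in Irf9 (5.68), Igtp (6.96) and Irgm (6.46). Replicate 5 at 6.88 mg/kg was the lowest in Dhx58 (4.46) and Parp14 (7.04), and replicate 4 at 680 mg/kg in Parp14 (7.01) and Psmb9 (7.20).

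The rats that stood apart at the high end were replicate 2 at 0.07 mg/kg in Irf1 (7.69, next 7.32), replicate 5 at 0.07 mg/kg in the dim Zbp1 (4.39, next 4.02), vehicle replicate 1 in Oasl (5.25, next 4.92) and replicate 4 at 68 mg/kg in Ifit2 (8.51, next 7.61). Of the 17 type I members above the lowest array median, replicate 2 at 0.07 mg/kg and replicate 4 at 68 mg/kg were the highest of their groups in 11 each and vehicle replicate 1 in 10.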

How the results depend on the processing

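At each dose, in the F test and in the trend, 0 probe sets were called under every alternative run and without each rat in turn. The median difference of the members kept its sign under all alternatives other than leaving out a rat, except with Actb 3 prime minus 5 prime as a covariate, where it was 0.03 at 0.07 mg/kg and also larger at 6.88 mg/kg (0.23 against 0.11). Without each rat it ranged from -0.11 to 0.06 at 0.07, from -0.04 to 0.14 at 0.69, from 0.00852 to 0.19 at 6.88, from -0.19 to 0.00337 at 68 and from -0.15 to 0.03 at 680 mg/kg. The median SD of the members stayed between 0.36 and 0.39. The SD of Mx2 was 0.69 with the mean of all its probe sets.

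The comparison of spread between groups depended most on the processing. The 26 probe sets called became 9 with quantile normalisation again, 7 with the mean of all probe sets of a gene, which leaves fewer features to test, and 0 with deviations from the group median, and 8 to 56 without each rat. The member called, Ubd, was lost (0 called) with deviations from the group median, and 0 to 1 were called without each rat. Apart from the construction noted, the cause was not tested.

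Of 85 pairs of arrays with the same replicate number in different groups, 14 correlated above 0.1 (range -0.31 to 0.30). Pairs with different numbers were not set beside them, so whether the numbers pair the rats was not tested. With the replicate block 2 probe sets and 0 members were called for spread, and 0 at each dose.

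Pairs passing stayed between 9 and 11 of 12. Ubd and Gbp2 lost the call with quantile normalisation again (r = 0.36, adjusted p = 0.0614, permutation) and with Actb as a covariate (0.23, adjusted p = 0.221, permutation), and Mx1 and Stat2 gained it (0.42 with the mean of probe sets, 0.45 with Actb). Below the gap in Mx2, a split chosen after seeing the data, r was -0.32 for Mx1 and Stat2 and -0.40 for Mx1 and Irf1 (exact permutation p = 0.408 and 0.284). All 9 Mx1 values there lay under 4.71, so these signs are not read as a change of direction. The filter on dim signals, other priors, array weights and the unmoderated analysis were not run for spread or pairs.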
